A study of Mus musculus with 6 samples.

Results

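The 10 genes described here mark astrocytes or carry out their transport and metabolism: Slc1a2, Slc1a3, Glul, Aqp4, Gja1, Gjb6, Aldoc, Aldh1l1, S100b and Sox9. They were chosen by name, as the entries of the expression table that carry these symbols, and make up 10 of the 54429 genes in it. All 10 were detected in every library and passed the filter on low values, which 16254 genes passed with 0.5 FPKM or more in 2 or more libraries. FPKM counts reads per kilobase of gene and scales them by a size for each library. RNA-seq of total RNA from the primary visual cortex (V1) was compared between 3 groups of 2 libraries, all from female C57BL mice 9 weeks old that had an adeno-associated virus (AAV) injected into V1. The first group received hairpins against CSB, the Cockayne syndrome protein encoded by Ercc6, and against NDN, necdin (shCSB/shNDN). The second received the hairpin against CSB alone (shCSB), and the third a control hairpin (shControl). The promoter of the hairpins, the virus serotype, the cells it reached and the time after injection are not given in the sources used here.

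Astrocytes clear glutamate from the space around synapses through the transporters encoded by Slc1a2 and Slc1a3 and turn it into glutamine, which neurons take back up. Their endfeet wrap blood vessels and carry the water channel of Aqp4, and connexin channels join neighbouring astrocytes into a network. Sox9 encodes a transcription factor that most adult astrocytes of the brain keep. In injury and inflammation astrocytes turn reactive, with raised Gfap and Vim, while microglia, the resident macrophages of the brain, multiply and change state.

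The 6 libraries held 15731788 to 17365285 recovered reads each. Ercc6 had 1.61 and 1.81 FPKM in the libraries labelled shCSB/shNDN and 1.29 and 1.61 FPKM in those labelled shCSB, against 1.46 and 1.22 FPKM in shControl, so its level did not show the loss that the label names. Ndn had 16.8 and 41.0 FPKM in shCSB/shNDN and 47.9 and 38.1 FPKM in shCSB, against 56.1 and 49.8 FPKM in shControl, and its difference between shCSB/shNDN and shControl did not pass the test (limma adjusted p = 0.362). Directions are therefore drawn between libraries as labelled. The 2 libraries labelled shCSB/shNDN stood apart from each other: Pearson's r of log2(FPKM + 1) across genes was 0.939 between them, 0.980 between the shCSB libraries and 0.986 between the shControl libraries. Replicate 1 of shCSB/shNDN had a summed FPKM of 3518 over 18 microglia genes, and replicate 2 had 895, against 375 and 427 in shCSB and 312 and 298 in shControl. Replicate 2 of shCSB/shNDN had 435 genes with a single read, against 1597 to 1839 in the other libraries, and 1.41% of its reads were mitochondrially encoded, against 4.95% to 7.65%. For Aldoc, Aqp4, Gjb6, S100b and Sox9 the change for shCSB/shNDN against shControl is also given without each of these 2 libraries. The shCSB/shNDN group then has 1 library, and its test assumes that this library varies as the other groups do. The wider gap between the 2 shCSB/shNDN libraries goes against that assumption, so the test can give p values that are too small.

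None of the 10 genes differed between groups past an adjusted p of 0.05 in any comparison (limma), beside 0.00615% of all genes kept for shCSB/shNDN against shControl and 0% in the other 2 comparisons. The clearest departure was Aldoc, lower in both shCSB/shNDN libraries than in the other 4, and the next was Sox9, higher in both. Aqp4 was high in 1 shCSB/shNDN library only. The other genes kept levels within about the spread of their replicates, in tissue where reactive astrocyte and microglia genes lay higher in shCSB/shNDN, none of them past the adjusted threshold.

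**Figure D1:**
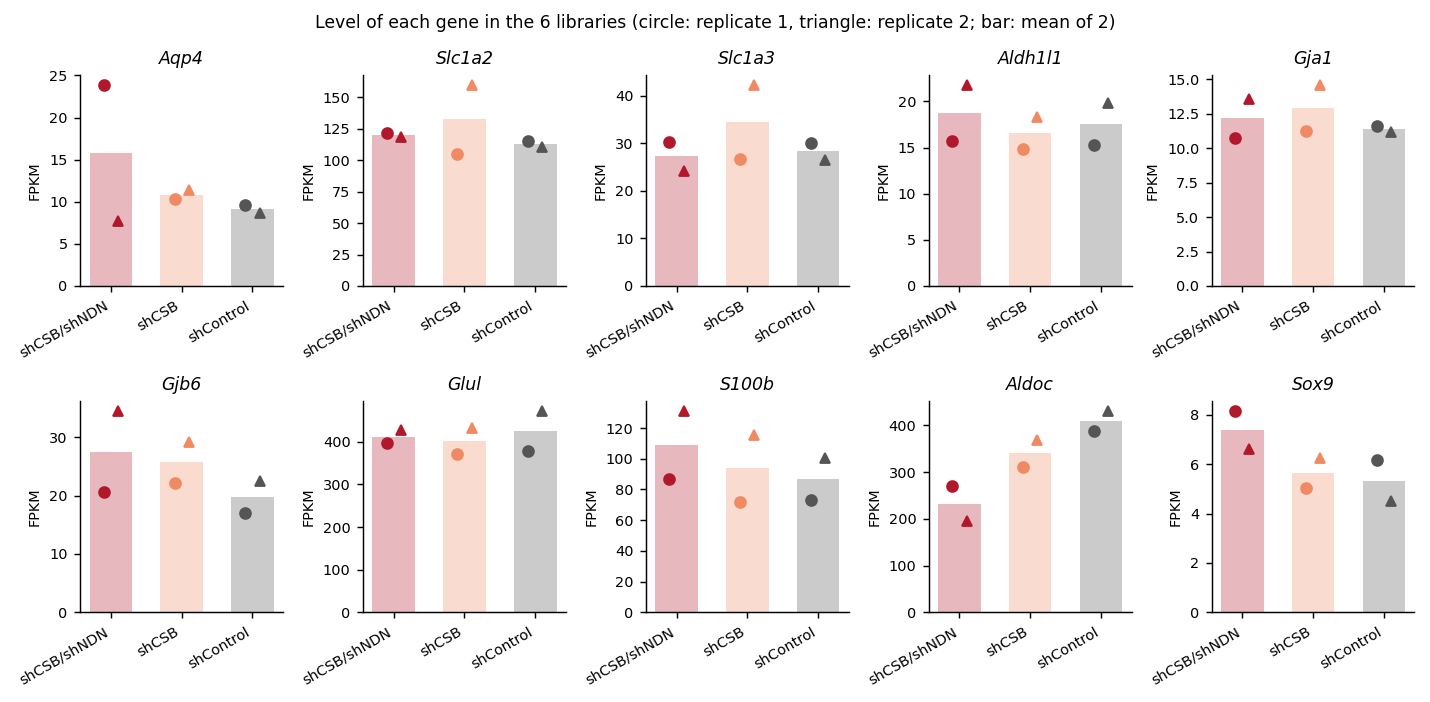
FPKM of the 10 genes in each library, 1 panel a gene with its own axis; the groups run shCSB/shNDN, shCSB and shControl, circles are replicate 1, triangles replicate 2 and bars the mean of the 2. Aldoc lies at 270 and 195 FPKM in shCSB/shNDN, below the 312 to 431 FPKM of the other 4 libraries, and Aqp4 reaches 23.9 FPKM in 1 shCSB/shNDN library against 7.74 FPKM in the other.

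Changes are given on the log2(FPKM + 1) scale. Over the 10 genes the median log2 change was 0.085 for shCSB/shNDN against shControl, 0.052 for shCSB/shNDN against shCSB and 0.12 for shCSB against shControl, beside -0.0075, -0.0083 and -0.0035 over all genes kept. In the last 2 comparisons the sign of the median rested on single libraries. For shCSB against shControl the median was 0.31 without shCSB replicate 1 and -0.089 without shCSB replicate 2, and for shCSB/shNDN against shCSB it was -0.12 without shCSB replicate 1, 0.22 without shCSB replicate 2 and -0.084 without shCSB/shNDN replicate 2. That for shCSB/shNDN against shControl stayed positive. It was 0.15 and 0.042 without shCSB/shNDN replicate 1 and replicate 2, and 0.094 and 0.17 without shControl replicate 1 and replicate 2. At an unadjusted p under 0.05 the count was 1 of 10, Aldoc, for shCSB/shNDN against shControl, beside 13.4% of all genes, and 0 of 10 in the other comparisons, beside 8.43% for shCSB/shNDN against shCSB and 1.94% for shCSB against shControl. Slc1a2 and Sox9 lay higher and Aldoc lower without overlap in shCSB/shNDN against shControl, which is 3 of 10, beside 44.4% of all genes. For shCSB/shNDN against shCSB these were Sox9 higher and Aldoc lower, 2 of 10 beside 34.8%, and for shCSB against shControl Aqp4 higher and Aldoc lower, 2 of 10 beside 36.4%. The shares of the 10 genes were thus no larger than those of all genes.

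**Figure D2:**
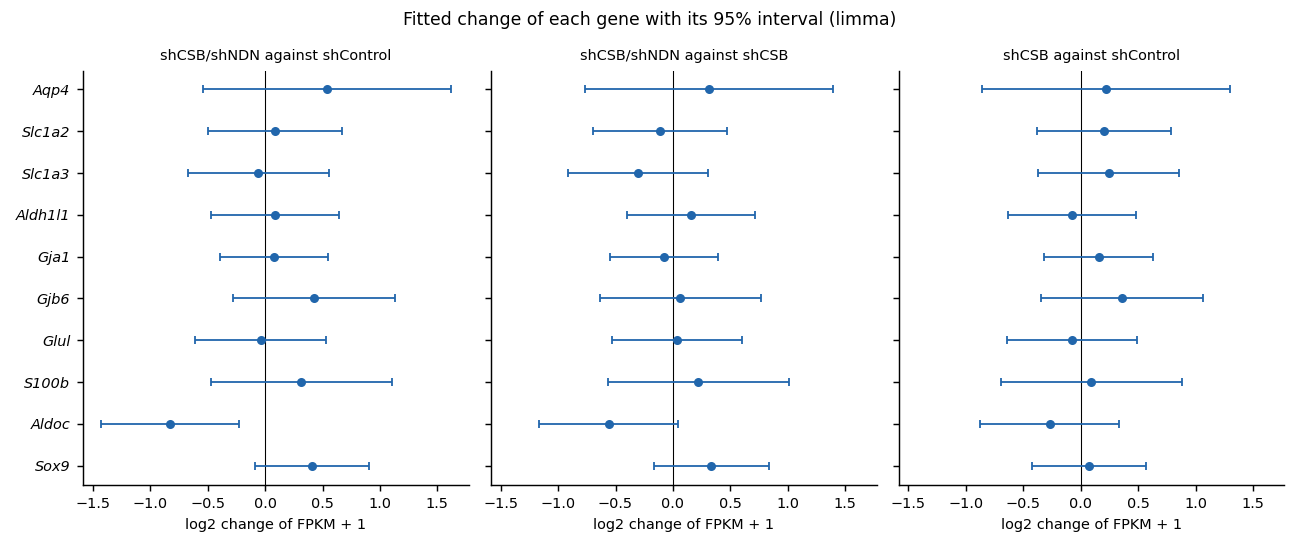
Log2 change of each of the 10 genes on the log2(FPKM + 1) scale, 1 panel for each comparison, with points for the limma estimate and lines for its 95% interval. Only the interval of Aldoc in shCSB/shNDN against shControl, -1.43 to -0.23, lies clear of 0.

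The 95% intervals and each SE use 1 spread a gene, estimated over all 6 libraries in every comparison. The intervals reached 0.47 to 1.08 to either side on the log2 scale. Those of 6 of the 10 genes lay wholly inside a 2-fold change in both directions for shCSB/shNDN against shControl, of 7 for shCSB/shNDN against shCSB and of 8 for shCSB against shControl. Smaller changes could not be told from the spread of 2 libraries a group. An exact permutation test of 2 libraries against 2 cannot give a two-sided p below 0.333. In bulk tissue fewer astrocytes and less RNA of a gene per astrocyte cannot be told apart.

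FPKM is per length, so levels of different genes can be set side by side as far as that length fits the transcripts present, which was not tested. For Gja1 and Gjb6, for example, it was the length of all annotated exons merged, 10257 and 2674 bases. The ranks of genes below depend on these lengths. Over the shControl libraries Glul and Aldoc ranked 72 and 75 among the 16254 genes by mean FPKM, with 0.455% of these genes above Aldoc. Slc1a2 ranked 501 and S100b 666. Slc1a3 ranked 2061, Gjb6 2829, Aldh1l1 3153, Gja1 4406, Aqp4 5137 and Sox9 7079. The order of the 10 genes was the same in 3 libraries, both shCSB libraries and shControl replicate 2, and in shControl replicate 1 only Aldoc and Glul changed places. Sox9 was the lowest of the 10 in each of the 6 libraries. Aqp4 stood 6th in shCSB/shNDN replicate 1 and 9th in the other 5 libraries. In shCSB/shNDN replicate 2 S100b, at 131 FPKM, stood above Slc1a2, at 118 FPKM, and Gjb6 above Slc1a3. In shControl the values of Glul and Aldoc overlapped, as did those of Gjb6 and Aldh1l1, and the other neighbours in the order did not. In shCSB/shNDN and in shCSB Glul lay above Aldoc without overlap.

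Slc1a2 (chr2:102658659-102790784, plus strand, all positions on GRCm38 as the table gives them) encodes the main glutamate transporter of the forebrain (GLT-1). Slc1a3 (chr15:8634124-8710764, minus strand) encodes its partner GLAST. Slc1a2 had 121 and 118 FPKM in shCSB/shNDN, 105 and 160 FPKM in shCSB, and 115 and 111 FPKM in shControl. Both shCSB/shNDN libraries lay just above both shControl libraries, and the shCSB replicates spanned all the others. The log2 change was 0.085 ± 0.24 (SE, n = 2 libraries a group) for shCSB/shNDN against shControl, with a 95% interval of -0.50 to 0.67 (limma adjusted p = 0.905). Against shCSB it was -0.11 ± 0.24 (limma adjusted p = 0.911), and for shCSB against shControl 0.20 ± 0.24 (limma adjusted p = 1).

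Slc1a3 had 30.4 and 24.2 FPKM in shCSB/shNDN, 26.8 and 42.4 FPKM in shCSB, and 30.1 and 26.6 FPKM in shControl. Its groups overlapped in all comparisons, and the highest library was again shCSB replicate 2. The log2 change was -0.059 ± 0.25 for shCSB/shNDN against shControl, with a limma adjusted p of 0.939, and against shCSB it was -0.30 ± 0.25, with an interval of -0.92 to 0.31 (limma adjusted p = 0.775). The FPKM of Slc1a2 over that of Slc1a3 in the same library was 3.998 and 4.89 in shCSB/shNDN, 3.92 and 3.78 in shCSB, and 3.83 and 4.16 in shControl. The pair thus moved together in shCSB replicate 2, where both were at their highest and their ratio at its lowest of the 6.

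Glul (chr1:153899944-153909723, plus strand) encodes glutamine synthetase, which turns the recovered glutamate into glutamine. It had 396 and 428 FPKM in shCSB/shNDN, 372 and 432 FPKM in shCSB, and 379 and 472 FPKM in shControl. Its highest library was 1.27 times its lowest, the narrowest range among the 10 genes, and its groups overlapped throughout. Its exons share 116 bases with Teddm2, which had 0.608 to 1.17 FPKM. Its log2 change for shCSB/shNDN against shControl was -0.039 ± 0.24, with an interval of -0.61 to 0.53 (limma adjusted p = 0.959). Glul over Slc1a2 was 3.26 and 3.62 in shCSB/shNDN, 3.54 and 2.70 in shCSB, and 3.29 and 4.27 in shControl.

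Of 17 other genes of the glutamate and glutamine cycle none passed the adjusted threshold in any comparison. Their median log2 change for shCSB/shNDN against shControl was 0.00014, against -0.0075 over all genes kept. In that comparison 8 of the 17 lay lower and 3 higher without overlap, beside 23.7% and 20.7% of all genes kept. Slc17a7, the vesicular glutamate transporter of cortical excitatory neurons, had 313 and 206 FPKM in shCSB/shNDN and 357 and 294 FPKM in shCSB, against 406 and 420 FPKM in shControl, so both other groups lay below shControl. The neuronal transporter Slc1a1 had 9.05 and 11.01 FPKM in shCSB/shNDN, 12.8 and 9.72 FPKM in shCSB, and 12.2 and 11.2 FPKM in shControl. Slc38a3, which exports glutamine from astrocytes, had 29.7 and 18.1 FPKM in shCSB/shNDN, 16.9 and 29.995 FPKM in shCSB, and 19.9 and 24.1 FPKM in shControl, with more spread within shCSB/shNDN and within shCSB than between groups.

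Aqp4 (chr18:15389394-15403684, minus strand) encodes the water channel of astrocyte endfeet. It had 23.9 and 7.74 FPKM in shCSB/shNDN, 10.3 and 11.4 FPKM in shCSB, and 9.64 and 8.67 FPKM in shControl. The shCSB/shNDN replicates held both the highest and the lowest of the 6 values, 3.09-fold apart, from 2074 and 673 reads. Both shCSB libraries lay above both shControl libraries, by a log2 change of 0.22 ± 0.45 (limma adjusted p = 1). This SE includes the gap between the shCSB/shNDN replicates. With only the 4 libraries compared it was 0.13 (limma adjusted p = 0.869). The change for shCSB/shNDN against shControl was 0.54 ± 0.45, with an interval of -0.54 to 1.62 (limma adjusted p = 0.633). Without shCSB/shNDN replicate 2 it was 1.30 (limma adjusted p = 0.00922), in a fit in which 3.86% of all genes passed and whose spread comes from the other groups alone, and without replicate 1 it was -0.22 (limma adjusted p = 0.384). Against shCSB the change was 1.07 without replicate 2 (limma adjusted p = 0.0220), where 2.98% of all genes passed, and -0.44 without replicate 1 (limma adjusted p = 0.139), where 5.49% passed. The library with high Aqp4 was also the one with the highest summed microglia genes, and the part of that difference in the Aqp4 value was not tested.

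Of 18 endfoot, water and potassium genes 16 were kept and none passed the adjusted threshold, with a median change of -0.014 for shCSB/shNDN against shControl. Kcnj10, the potassium channel that clears potassium at endfeet, had 41.4 and 18.1 FPKM in shCSB/shNDN, 24.4 and 30.4 FPKM in shCSB, and 26.1 and 34.9 FPKM in shControl. Like Aqp4, it had its highest and its lowest value in the 2 shCSB/shNDN libraries. The gap was smaller for Dag1, which encodes dystroglycan and had 12.97 and 9.82 FPKM in shCSB/shNDN, 10.2 and 10.3 FPKM in shCSB, and 10.3 and 9.05 FPKM in shControl.

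Gja1 (chr10:56377330-56402513, plus strand) and Gjb6 (chr14:57123303-57133611, minus strand) encode connexin 43 and connexin 30, the gap junction proteins of astrocytes. Gja1 had 10.7 and 13.6 FPKM in shCSB/shNDN, 11.2 and 14.6 FPKM in shCSB, and 11.6 and 11.2 FPKM in shControl. These ranges overlapped, and for shCSB/shNDN against shControl the log2 change was 0.078 ± 0.20, with an interval of -0.39 to 0.55 (limma adjusted p = 0.890). Gjb6 had 20.6 and 34.5 FPKM in shCSB/shNDN, 22.1 and 29.3 FPKM in shCSB, and 17.1 and 22.5 FPKM in shControl. Its mean was higher in shCSB/shNDN and in shCSB than in shControl, but each of these groups overlapped shControl. The log2 change was 0.43 ± 0.29 for shCSB/shNDN against shControl, with an interval of -0.28 to 1.13 (limma adjusted p = 0.563), 0.066 ± 0.29 for shCSB/shNDN against shCSB (limma adjusted p = 0.962), and 0.36 ± 0.29 for shCSB against shControl (limma adjusted p = 1). The Gjb6 change for shCSB/shNDN against shControl was 0.79 without shCSB/shNDN replicate 1 (limma adjusted p = 0.0862), 0.065 without replicate 2 (limma adjusted p = 0.913) and 0.23 without shControl replicate 1. Gjb6 over Gja1 was 1.91 and 2.54 in shCSB/shNDN, 1.97 and 2.00 in shCSB, and 1.47 and 2.02 in shControl. The size of this ratio depends on the lengths used, 10257 bases for Gja1 and 2674 for Gjb6. In reads Gja1 lay above Gjb6 in every library, at 1711 to 2669 against 743 to 1581.

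Of 16 other connexin and pannexin genes 11 were kept, and none passed the adjusted threshold. Gjb2, which encodes connexin 26, had 2.85 and 3.62 FPKM in shCSB/shNDN and 3.86 and 3.90 FPKM in shCSB, against 2.37 and 1.11 FPKM in shControl, so both other groups lay above shControl at low levels. Of 12 meningeal and fibroblast genes kept, 11 lay higher without overlap in shCSB/shNDN than in shControl, beside 20.7% of all genes, and 12 in shCSB than in shControl, beside 18.3%. Their part in the Gjb2 values was not tested. The oligodendrocyte connexin gene Gjc3 stayed between 8.82 and 13.6 FPKM. The neuronal connexin gene Gjd2 lay between 0.957 and 2.30 FPKM.

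Aldoc (chr11:78322968-78327781, plus strand) encodes aldolase C, the brain form of a glycolytic enzyme and an astrocyte marker in cortex. It had 270 and 195 FPKM in shCSB/shNDN and 312 and 369 FPKM in shCSB, against 388 and 431 FPKM in shControl. The 3 groups did not overlap: shCSB/shNDN lay lowest, shCSB between, and shControl highest. The mean in shCSB/shNDN was 0.568 times that of shControl and the log2 change -0.83 ± 0.25, with an interval of -1.43 to -0.23, an unadjusted p of 0.0145 and a limma adjusted p of 0.2998. Against shCSB the shCSB/shNDN mean was 0.684 times as high, with a log2 change of -0.56 ± 0.25 and an interval of -1.16 to 0.043 (limma adjusted p = 0.616). For shCSB against shControl the mean was 0.830 times as high and the change -0.27 ± 0.25, with an interval of -0.87 to 0.33 (limma adjusted p = 1). These comparisons share libraries, so the 3 values are not independent. Without shCSB/shNDN replicate 1 the change against shControl was -1.06 (limma adjusted p = 0.0312), in a fit in which 11.1% of all genes passed and whose spread comes from the other groups alone. Without replicate 2 it was -0.60 (limma adjusted p = 0.207), in a fit in which 3.86% passed. Over the 3 groups Aldoc had the smallest p of the 10 genes (limma moderated F test, adjusted p = 0.557).

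Of 20 other glycolytic genes none passed the adjusted threshold. Their median log2 change for shCSB/shNDN against shControl was -0.28, and 12 of the 20 lay lower in both shCSB/shNDN libraries than in both shControl libraries while 2 lay higher, beside 23.7% lower and 20.7% higher of all genes kept. Aldoa, the general aldolase, had 569 and 628 FPKM in shCSB/shNDN and 866 and 646 FPKM in shCSB, against 884 and 846 FPKM in shControl. Aldoc over Aldoa was 0.474 and 0.311 in shCSB/shNDN, 0.3598 and 0.570 in shCSB, and 0.439 and 0.509 in shControl, so the ratio overlapped between groups where Aldoc itself did not. Ldhb, a lactate dehydrogenase subunit, had 345 and 435 FPKM in shCSB/shNDN, 476 and 426 FPKM in shCSB, and 454 and 498 FPKM in shControl. Gapdh, a glycolytic gene that has numerous pseudogenes, had 64.9 and 3.35 FPKM in shCSB/shNDN, 3.99 and 4.72 FPKM in shCSB, and 3.21 and 4.59 FPKM in shControl. Pseudogenes leave its levels uncertain, and the source of the 64.9 FPKM in shCSB/shNDN replicate 1 was not tested.

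Aldh1l1 (chr6:90486427-90600203, plus strand) encodes a folate enzyme of astrocytes whose promoter is widely used to mark them. It had 15.7 and 21.8 FPKM in shCSB/shNDN, 14.9 and 18.3 FPKM in shCSB, and 15.2 and 19.8 FPKM in shControl. Its groups overlapped in all comparisons, and the log2 change for shCSB/shNDN against shControl was 0.085 ± 0.23, with an interval of -0.47 to 0.64 (limma adjusted p = 0.900). Its exons overlap 499 bases of the antisense gene Gm15756 and 105 bases of Gm45901, both under 1 FPKM. Of 14 other folate and one-carbon genes 10 were kept, and none passed the adjusted threshold. Of these 10, 5 lay higher and 0 lower without overlap in shCSB/shNDN than in shControl, beside 20.7% and 23.7% of all genes kept. Against shCSB 4 lay higher and 0 lower, beside 16.5% and 18.4%. The median log2 changes were 0.10 and 0.17. Mthfd1, the cytosolic folate enzyme, lay between 6.30 and 7.72 FPKM. Shmt1 lay between 0.564 and 0.865 FPKM.

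S100b (chr10:76253853-76261159, plus strand) encodes a calcium-binding protein that astrocytes hold and secrete. It had 86.9 and 131 FPKM in shCSB/shNDN, 72.1 and 116 FPKM in shCSB, and 72.9 and 101 FPKM in shControl. Within each group replicate 2 was 1.38 to 1.61 times replicate 1, and the groups overlapped. Its log2 change for shCSB/shNDN against shControl was 0.31 ± 0.33, with an interval of -0.48 to 1.10 (limma adjusted p = 0.707). That change was 0.61 without shCSB/shNDN replicate 1 (limma adjusted p = 0.258), 0.019 without replicate 2 (limma adjusted p = 0.983), and 0.083 and 0.54 without shControl replicate 1 and replicate 2. Of 12 other S100 genes 9 were kept, and none passed the adjusted threshold. Of these 9, 5 lay higher in both shCSB/shNDN libraries than in both shControl libraries and 0 lower, with a median log2 change of 0.26, beside 20.7% higher and 23.7% lower of all genes kept. S100a6, a gene of many glia and of fibroblasts, had 42.4 and 37.4 FPKM in shCSB/shNDN and 18.4 and 19.7 FPKM in shCSB, against 15.7 and 13.3 FPKM in shControl. S100a1 had 149 and 136 FPKM in shCSB/shNDN, 92.4 and 116 FPKM in shCSB, and 103 and 106 FPKM in shControl. S100a10 had 24.3 and 16.2 FPKM in shCSB/shNDN, 28.2 and 19.6 FPKM in shCSB, and 21.1 and 26.1 FPKM in shControl, and S100a13 lay between 28.3 and 38.7 FPKM.

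Sox9 (chr11:112782224-112787760, plus strand) encodes a transcription factor that starts the glial programme in development. It had 8.16 and 6.60 FPKM in shCSB/shNDN, 5.02 and 6.26 FPKM in shCSB, and 6.16 and 4.52 FPKM in shControl, from 279 to 576 reads. Both shCSB/shNDN libraries lay above the other 4, while shCSB and shControl overlapped. In shCSB/shNDN its mean was 1.38 times that of shControl and the log2 change 0.41 ± 0.21, with an interval of -0.092 to 0.91 (limma adjusted p = 0.438). That change was 0.27 without shCSB/shNDN replicate 1, 0.54 without replicate 2 and 0.22 without shControl replicate 2. Against shCSB the mean was 1.31 times as high and the change 0.34 ± 0.21 (limma adjusted p = 0.698). Of 15 other astrocyte and glial transcription factor genes none passed the adjusted threshold, with a median change of 0.11 for shCSB/shNDN against shControl. Sox2, a factor of neural progenitors that astrocytes keep, had 23.7 and 25.8 FPKM in shCSB/shNDN, 22.6 and 20.95 FPKM in shCSB, and 22.5 and 22.7 FPKM in shControl. Nfia, which acts with Sox9 in glial development, had 2.69 and 3.26 FPKM in shCSB/shNDN, 3.28 and 4.06 FPKM in shCSB, and 3.69 and 3.23 FPKM in shControl. Id4 had 14.6 and 25.6 FPKM in shCSB/shNDN, 17.5 and 19.5 FPKM in shCSB, and 17.3 and 12.5 FPKM in shControl, and the Notch target Hes5 had 9.97 and 17.9 FPKM in shCSB/shNDN, 13.1 and 8.29 FPKM in shCSB, and 14.2 and 9.14 FPKM in shControl.

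Short matches to the motifs of glial factors were looked for in the promoters, since Sox9 is one of the 10 genes and nuclear factor I acts beside it. RefSeq promoter windows on GRCm38.p6, which run 250 bases before to 50 after a start site, matched 8 of the 10 genes with 9 windows. On either strand, the SOX motif ACAAAG was in 0 of the 9 windows, the nuclear factor I motif TTGGCA in 2 and the AP-1 motif TGANTCA in 1. Of all 32851 promoter windows, 18.7%, 14.1% and 7.81% held these motifs in that order. The 3 windows with a match are shown 5′ to 3′ on the plus strand with the matched letters in capitals, for Aldoc at chr11:78322823-78323122, S100b at chr10:76253586-76253885 and Gja1 at chr10:56377050-56377349. In Aldoc the nuclear factor I match begins 146 bases before the start site and in S100b 19 bases before it, and in Gja1 the AP-1 match begins 19 bases before it. A match of letters is a description of the sequence and was not tied to any change in level.
Aldoc: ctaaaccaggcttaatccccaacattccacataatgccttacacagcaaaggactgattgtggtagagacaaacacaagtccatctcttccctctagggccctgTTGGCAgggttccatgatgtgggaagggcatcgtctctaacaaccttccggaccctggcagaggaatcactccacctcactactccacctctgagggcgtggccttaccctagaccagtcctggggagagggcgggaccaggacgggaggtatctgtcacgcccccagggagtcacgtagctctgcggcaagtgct
S100b: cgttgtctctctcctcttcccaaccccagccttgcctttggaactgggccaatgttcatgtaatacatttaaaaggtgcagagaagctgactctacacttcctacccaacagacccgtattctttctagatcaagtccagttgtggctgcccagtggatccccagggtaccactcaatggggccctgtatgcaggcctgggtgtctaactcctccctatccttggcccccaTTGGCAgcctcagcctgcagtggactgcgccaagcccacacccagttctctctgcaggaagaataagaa
Gja1: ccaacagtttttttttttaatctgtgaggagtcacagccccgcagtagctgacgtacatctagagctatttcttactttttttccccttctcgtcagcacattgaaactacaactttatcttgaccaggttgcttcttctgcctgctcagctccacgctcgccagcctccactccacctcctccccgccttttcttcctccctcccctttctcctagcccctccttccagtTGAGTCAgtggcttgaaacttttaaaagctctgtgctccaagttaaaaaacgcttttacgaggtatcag

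The 10 genes did not rise and fall as a block across libraries. Their mean profile on the log2 scale, each gene centred on its own mean, was 0.057 and 0.016 in shCSB/shNDN, -0.16 and 0.22 in shCSB, and -0.11 and -0.021 in shControl, so its extremes were the 2 shCSB libraries. Slc1a2 was most like the mean of the other 9 genes (Pearson's r of 0.889 over the 6 libraries). Aqp4 and Aldoc were least like it, at -0.126 and -0.340. The remaining genes ran from 0.254 for Sox9 to 0.587 for Slc1a3. These are descriptions over 6 libraries, in which all genes are scaled by the same library sizes. The highest library was shCSB replicate 2 for Slc1a2, Slc1a3 and Gja1, shCSB/shNDN replicate 2 for Aldh1l1, Gjb6 and S100b, shCSB/shNDN replicate 1 for Aqp4 and Sox9, and shControl replicate 2 for Glul and Aldoc. Among the 7041 protein-coding genes averaging 5 FPKM or more, those whose log2 levels most resembled the mean profile were Zbtb48 (r of 0.986), Tfrc (0.978), Slc4a4 (0.975), Pltp (0.959) and F3 (0.948). Of these, Slc4a4 encodes the sodium bicarbonate cotransporter of astrocytes, and both Slc4a4 and F3 were among the other astrocyte genes listed. The 5 were picked for the highest r among 7041 genes over 6 libraries, so high values follow from the choice itself.

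**Figure D3:**
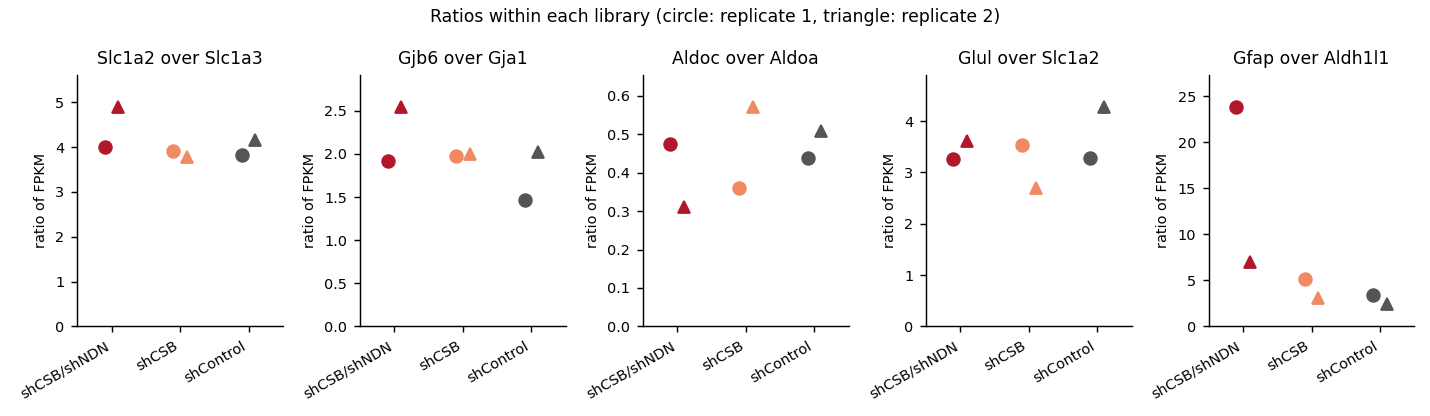
Ratio of the FPKM of 2 genes within each library, for 5 pairs, with the groups in the order shCSB/shNDN, shCSB and shControl. Slc1a2 over Slc1a3 stays between 3.78 and 4.89, while Gfap over Aldh1l1 reaches 23.8 in 1 shCSB/shNDN library against 2.44 and 3.43 in shControl.

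The 30 other astrocyte genes also had medians near 0. All 30 were kept and none passed the adjusted threshold, and their median log2 change was 0.041 for shCSB/shNDN against shControl, 0.030 for shCSB/shNDN against shCSB and -0.045 for shCSB against shControl. Of the 30, 11 lay higher and 8 lower without overlap in shCSB/shNDN against shControl, beside 20.7% and 23.7% of all genes kept. Their summed FPKM was 1923 and 2256 in shCSB/shNDN, 1844 and 2326 in shCSB, and 2089 and 2205 in shControl. Slc4a4 had 7.35 and 7.83 FPKM in shCSB/shNDN, 5.41 and 9.55 FPKM in shCSB, and 6.09 and 6.72 FPKM in shControl. Clu, which encodes clusterin, had 439 and 407 FPKM in shCSB/shNDN and 333 and 348 FPKM in shCSB, against 377 and 359 FPKM in shControl. The receptor gene Fgfr3 had 14.5 and 22.6 FPKM in shCSB/shNDN, 12.3 and 15.2 FPKM in shCSB, and 12.4 and 13.1 FPKM in shControl, and Ndrg2 had 189 and 361 FPKM in shCSB/shNDN, 251 and 386 FPKM in shCSB, and 312 and 345 FPKM in shControl.

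Reactive astrocyte genes lay higher in shCSB/shNDN in the same libraries. Of 17 listed 12 were kept, all 12 lay higher in both shCSB/shNDN libraries than in both shControl libraries, beside 20.7% of all genes kept, and their median log2 change was 1.61, yet none passed the adjusted threshold. Gfap, the intermediate filament of reactive astrocytes, had 372 and 152 FPKM in shCSB/shNDN and 76.3 and 56.3 FPKM in shCSB, against 52.2 and 48.4 FPKM in shControl. Vim, the filament gene vimentin, had 81.8 and 42.6 FPKM in shCSB/shNDN and 13.03 and 13.4 FPKM in shCSB, against 8.17 and 6.33 FPKM in shControl. Serpina3n, a secreted protease inhibitor, had 124 and 16.7 FPKM in shCSB/shNDN, 8.43 and 8.90 FPKM in shCSB, and 6.66 and 9.12 FPKM in shControl. Gfap over Aldh1l1, a ratio chosen after its values were seen, was 23.8 and 6.96 in shCSB/shNDN and 5.13 and 3.08 in shCSB, against 3.43 and 2.44 in shControl. The difference between the 2 kinds of astrocyte gene was not tested. Of 18 microglia genes, 15 lay higher without overlap in shCSB/shNDN than in shControl, beside the same 20.7%, with a median log2 change of 1.67, and what they contribute to the values of the astrocyte genes was not tested.

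**Figure D4:**
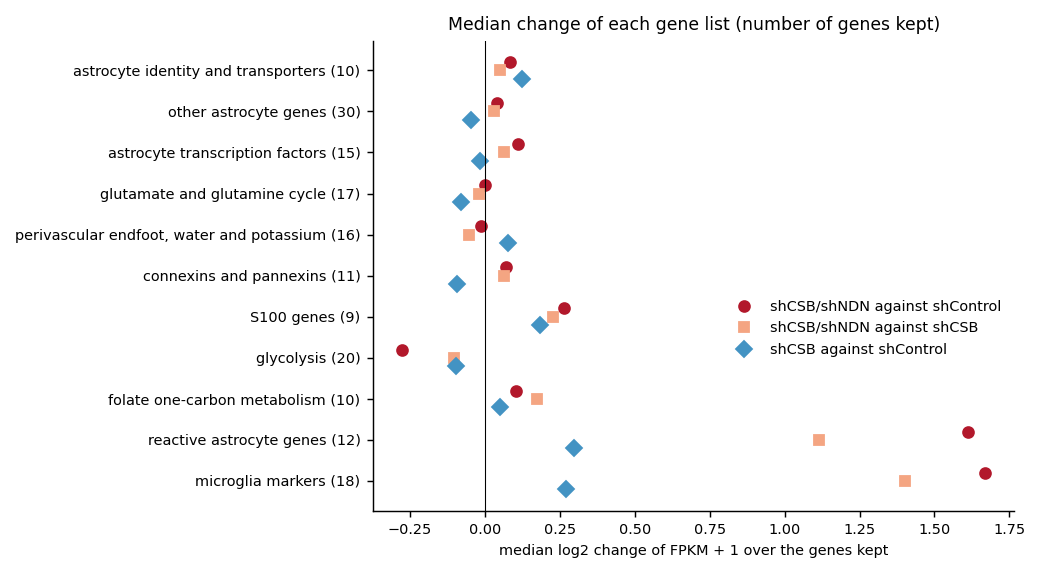
Median log2 change of 11 gene lists in the 3 comparisons, the 10 astrocyte genes among them. For shCSB/shNDN against shControl the reactive astrocyte and microglia lists lie at 1.61 and 1.67 and the 10 astrocyte genes at 0.085.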

How the data were processed

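Total RNA of the V1 cortex was made into libraries with a stranded kit, per the labels' protocols, for 2 female mice a group per the series' design text. Each replicate was counted as its own animal. The authors deposited 1 table of FPKM values with a column for each library. The submitters' processing notes name HISAT2 2.0.4, FastQC and GRCm39. How reads were counted, whether by strand and on which annotation is not given in the sources used here, which leaves genes that overlap, are antisense or have close copies uncertain. Of 54409 identifiers shared with GENCODE M21, an annotation of GRCm38, 53499 (98.3%) have the same position there, so coordinates are named GRCm38. For Aqp4 the 2 models differ.

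In the deposited FPKM table, 100% of values times gene length were whole multiples of 1 step a library, within 0.01. This gave the reads behind each value, and also the library size by which they had been scaled. That size was 0.970 and 0.949 times the recovered reads in shControl. In shCSB it was 1.01 and 1.02 times them, and in shCSB/shNDN 1.03 and 1.04 times them. A gene at 0 reads may have up to 3, which at 1 kilobase is 0.169 to 0.201 FPKM, for counting error alone. The 54532 entries included 27 symbols that a spreadsheet had made dates, restored here, and 100 repeated symbols, whose entries were added up. The spread between replicates exceeded sampling noise in all groups, and not equally. Chi-square over its degrees of freedom was 121 in shCSB/shNDN, 26.1 in shCSB and 11.55 in shControl.

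limma 3.58.1 (R 4.3.3) was run on log2(FPKM + 1) of the 6 libraries together, allowing the variance to follow the mean. The residual degrees of freedom were 3 and the prior ones 3.42. The p values are two-sided, were adjusted by Benjamini and Hochberg's method over the 16254 kept genes, and were called under 0.05. The fit was also run on simulated reads, and the outcome of that run is not reported here. The 10 genes, 19 further lists and the partner genes named, picked whatever their values, were chosen with earlier results of these data known, and the lists are described by counts and medians with no set test. A few of the partner genes are not reported here. The genes most like the 10 were the 5 protein-coding genes with the highest Pearson's r to their mean centred profile. The 17 other settings are compared in the closing section, and list medians under them and the ratio of Gfap to Aldh1l1 were added after seeing the data.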

Additional observations from a re-analysis of the deposited data

How the results depend on the processing

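The 2 libraries a group limit what could be detected, and no alternative adds depth. None of the 10 genes passed the adjusted threshold under the 11 settings that kept all the libraries compared, limma-voom on recovered reads among them. The count of genes past an adjusted p of 0.05 for shCSB/shNDN against shControl was 1, and it was 0 with no filter, 3 with the replicate block, 6 with limma-voom on recovered reads, 2 with a weight per library, 0 with only the 4 libraries compared and 0 to 1808 with 1 replicate left out. For shCSB/shNDN against shCSB it was 0, and 0 to 893 with 1 replicate left out. For shCSB against shControl it was 0, and 1 with a weight per library, 2 with only the 4 libraries compared and 0 to 1 with 1 replicate left out. The cause was not tested. Over all genes kept, correlations of deviations between same-numbered libraries were -0.016, -0.071 and 0.054, so replicate numbers did not pair the libraries. Among the 10 genes, replicate 2 lay above replicate 1 in all 3 groups for Aldh1l1, Gjb6, Glul and S100b. It did so in 1 or 2 groups for the others. The replicate block changed no call of the 10 genes. Aldoc kept its negative sign in all settings, with a log2 change of -1.06 to -0.60 for shCSB/shNDN against shControl and a limma adjusted p of 0.0312 to 0.868. The median change of the 10 genes ran over all settings between 0.042 and 0.20 for shCSB/shNDN against shControl, -0.12 and 0.22 for shCSB/shNDN against shCSB, and -0.089 and 0.31 for shCSB against shControl. Quantile normalization turned the sign for Slc1a3 (0.037) and Glul (0.095) in shCSB/shNDN against shControl and for Glul (0.091) in shCSB against shControl. Limma-voom did so for Slc1a3 (0.052) and Glul (0.074) in shCSB/shNDN against shControl, and for Glul (0.0084) and Aldh1l1 (0.0098) in shCSB against shControl, and it raised the median of all genes by 0.099 and 0.082 in these comparisons. With 1 replicate left out, signs turned for shCSB/shNDN against shControl in Aqp4 (-0.22 to 1.30), Slc1a3 (-0.22 to 0.099), Aldh1l1 (-0.14 to 0.31), Glul (-0.20 to 0.12) and Gja1 (-0.079 to 0.23). For shCSB/shNDN against shCSB they turned in Aqp4 (-0.44 to 1.07), Slc1a2 (-0.42 to 0.19), Slc1a3 (-0.63 to 0.017), Glul (-0.069 to 0.14), Gja1 (-0.25 to 0.098), Gjb6 (-0.29 to 0.43), S100b (-0.12 to 0.56) and Aldh1l1 (-0.070 to 0.38). For shCSB against shControl they turned in Slc1a2 (-0.10 to 0.50), Slc1a3 (-0.076 to 0.57), Glul (-0.24 to 0.083), Gja1 (-0.021 to 0.33), Aldh1l1 (-0.25 to 0.11), S100b (-0.25 to 0.43) and Sox9 (-0.12 to 0.26).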

Other observations

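None of the genes listed for other cell types passed the adjusted threshold in any comparison (limma). The median log2 change of the 12 meningeal and fibroblast genes kept was 0.56 for shCSB/shNDN against shControl, -0.21 for shCSB/shNDN against shCSB and 0.60 for shCSB against shControl. For shCSB/shNDN against shControl the medians of the other lists were -0.27 for 12 excitatory neuron genes, -0.18 for 10 inhibitory neuron genes, -0.19 for 12 oligodendrocyte genes, 0.20 for 8 oligodendrocyte precursor genes and 0.088 for 14 endothelial and mural genes. They were 0.017 for 5 choroid plexus and ependymal genes and -0.098 for 11 genes of the hippocampus and other regions. For 5 genes of Bergmann glia, a type of astrocyte of the cerebellum, the median was -0.33.

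S100a11, a calcium-binding gene of the S100 family, had 139 reads and 0 reads in shCSB/shNDN replicates 1 and 2, 69 and 68 reads in shCSB, and 43 and 35 reads in shControl. In FPKM these were 15.9, listed at 0, 8.24, 7.48, 5.17 and 4.59, and a count of 0 allows 0.343 FPKM. All genes were searched for this pattern, an FPKM of at least 2 in 5 libraries and 0 reads in the sixth. The search found 11 genes at 0 in shCSB/shNDN replicate 2 and 0 or 1 in each of the other libraries. Of the 11, only 2 were protein-coding, S100a11 among them. Both S100a11 and the search were chosen after their values were seen.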
